A study of Mus musculus with 6 samples.

Results

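The genes described here make, activate, insert or help to oxidise the unsaturated acyl chains of membrane phospholipids. They were chosen by gene name from a list of 10, and 9 of them, Acsl4, Acsl3, Acsl1, Acsl5, Lpcat3, Por, Cyb5r1, Elovl5 and Fads1, had a row among the 25407 rows of the deposited table. Mboat2 was not analysed here. RNA was sequenced from 3 treated and 3 control libraries of CT26.WT, a cell line from a mouse colon carcinoma. The treatment combined Cu2O@AuMn@HA, whose name lists copper oxide, gold and manganese, with NaHS, a salt that releases hydrogen sulfide, and NIR (near-infrared light), and no agent is named for the control cells. The sources used here give no dose or time and no treatment with a single component, so the parts of the treatment cannot be told apart. The library titles say only Exper or contr, read here as treated and control. Nothing says that replicates came from separate cultures, so a p-value here covers a spread between libraries that may be technical. The series title names ferroptosis, a form of cell death driven by peroxidised phospholipids, among the subjects of the study.

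Peroxidation needs a polyunsaturated acyl chain in a membrane. Such chains are lengthened and desaturated (Elovl5, Fads1), joined to coenzyme A by long-chain acyl-CoA synthetases (the Acsl genes) and inserted into lysophospholipids (Lpcat3). Acsl4 prefers arachidonic and related polyunsaturated acids and is known as a determinant of ferroptosis sensitivity, whereas Acsl3 is known for activating monounsaturated acids, which compete for the same positions in phospholipids. Por and Cyb5r1 pass electrons from NADPH or NADH to acceptors, including oxygen, and both are known for promoting phospholipid peroxidation.

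Library totals were 62328377 to 70323604 estimated counts in treated and 71409968 to 81821380 in control libraries. The libraries differed in how the level of a transcript followed its content of G and C bases (GC content). The Spearman correlation between GC content and each library's deviation from the mean of all libraries, across 10472 rows that are not independent replicates, was -0.28, -0.52 and 0.05 in treated libraries 1, 2 and 3, against 0.10, 0.44 and 0.22 in control libraries 1, 2 and 3. Treated 2 and control 2 stood at the ends of this order, and results were also computed without both. Of 9 markers of colon carcinoma and epithelium, 4 (Krt7, Krt8, Krt18 and Krt20) had a mean of at least 1 FPKM (fragments scaled to transcript length and library total), while Krt19, Epcam, Cdh1, Cdx2 and Vil1 were below it. The summed level of that list was 226 to 239 FPKM in treated and 156 to 172 FPKM in control libraries, but its genes differed in both directions: Krt18 averaged 163 FPKM in treated and 65.4 FPKM in control libraries, and Krt20 57.5 FPKM in treated and 90.3 FPKM in control libraries. Of the leukocyte markers, Lyz2 averaged 2.70 FPKM in treated and 2.74 FPKM in control libraries, while Ptprc and Csf1r averaged at most 0.0153 FPKM in treated and 0.00438 FPKM in control libraries. The 3 endothelial markers summed to at most 0.0447 FPKM in treated and 0.0331 FPKM in control libraries. The 6 mesenchymal markers summed to 1332 to 1416 FPKM in treated and 1015 to 1089 FPKM in control libraries. Most of that sum was Vim (means of 1295 FPKM in treated and 925 FPKM in control libraries), and the other 5 had lower means in treated libraries, such as Col1a1 with 15.1 FPKM in treated and 31.1 FPKM in control libraries. The part of these marker differences in the results was not tested. Values with the GC trend taken out are given for the 9 genes, their ratios and shares and the list counts. For single list genes they are given where they change the call, or change a called fold change by over 1.5 times.

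Acsl4 rose 1.98-fold in treated cells, or 1.17-fold with a trend on GC content taken out, and Acsl5, Cyb5r1, Elovl5, Por and Lpcat3 fell, while Acsl3, Acsl1 and Fads1 did not pass the test. The falls of Acsl5, to 0.470 of the control level, and Cyb5r1, to 0.532 of it, were the largest of the 5. A row was called when its adjusted p was below 0.05 in edgeR's quasi-likelihood test, adjusted by the Benjamini-Hochberg method over 16212 tested rows, and all 9 genes were among the rows tested. Thus 6 of 9 were called, 1 higher and 5 lower, where 46.6% of all tested rows were called, 23.0% higher and 23.5% lower. The median log2 fold change of treated over control was -0.24 over the 9 genes, beside 0.06 over all tested rows. With upper quartile scaling in place of TMM the median of all rows moved up by 0.12, and 60.8% of all calls were higher, compared with 49.5% with TMM. With that scaling Acsl4 and Acsl3 were called higher and Acsl5, Cyb5r1, Por and Elovl5 lower, where 47.6% of all tested rows were called, 28.9% higher and 18.7% lower. With the GC correction (a trend on GC content taken out of each library), the genes called were Acsl4 higher (log2 fold change 0.22 in place of 0.99) and Acsl5, Cyb5r1, Elovl5 and Por lower, where 49.9% of 15760 tested rows were called, 23.0% higher and 26.8% lower. The trend was fitted in each library without regard to group. A response to treatment that follows GC content would be taken out together with any technical trend. The design cannot tell these apart, so neither the corrected nor the uncorrected value is free of this limit. In RNA from whole cultures, fewer cells of a kind and less RNA per cell cannot be told apart.

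**Figure D1:**
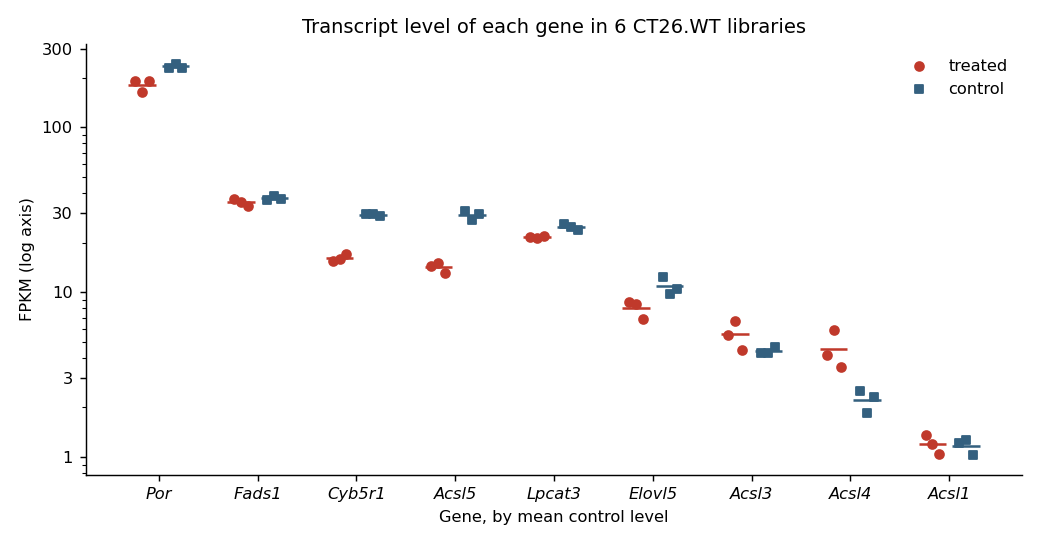
FPKM of each of the 9 genes in the 3 treated (circles) and 3 control (squares) libraries, on a log axis, with the group mean as a bar. The groups do not overlap for Acsl4, which is higher in treated cells, or for Acsl5, Cyb5r1, Por, Lpcat3 and Elovl5, which are lower. The share of all rows whose groups do not overlap was not computed.

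The levels, on a scale per transcript length, ran from Acsl1 at 1.03 FPKM to Por at 243 FPKM. In treated libraries the order of the mean levels was Por, Fads1, Lpcat3, Cyb5r1, Acsl5, Elovl5, Acsl3, Acsl4 and Acsl1, and of the neighbours in it Acsl3 and Acsl4 overlapped over the libraries. In control libraries it was Por, Fads1, Cyb5r1, Acsl5, Lpcat3, Elovl5, Acsl3, Acsl4 and Acsl1, and of the neighbours Cyb5r1 and Acsl5 overlapped. Lpcat3 thus stood above Cyb5r1 and Acsl5 in every treated library and below both in every control library. In the authors' annotation all 9 genes carried the term endoplasmic reticulum membrane, which 5.01% of 17172 annotated rows carried, and 8 (all but Por) carried lipid metabolic process, against 3.59% of annotated rows. The choice of genes for their roles fixes this, so it is a description.

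To show the start regions of the gene that rose and of the 2 that fell furthest, the 250 bases before the annotated transcription start are given 5′ to 3′ on the gene's strand, from RefSeq's annotation of build GRCm38.p6. Capitals mark every match, on either strand, to ACGTG or GCGTG (the core bound by hypoxia factors), GAANNTTC (heat shock factor), TGCACNC or TGCGCNC (metal response), TGACNNNGC (antioxidant response), TGATGNAA (ATF4 with C/EBP), the sterol regulatory element, CCAAT (NF-Y) and GGGCGG (GC box).
Acsl4 (chrX:142390536-142390785, minus strand): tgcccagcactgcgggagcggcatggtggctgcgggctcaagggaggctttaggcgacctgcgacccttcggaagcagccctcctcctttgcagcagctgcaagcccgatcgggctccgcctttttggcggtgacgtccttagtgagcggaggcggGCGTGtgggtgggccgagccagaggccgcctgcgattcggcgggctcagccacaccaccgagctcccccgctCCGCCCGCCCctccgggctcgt
Acsl5 (chr19:55253119-55253368, plus strand): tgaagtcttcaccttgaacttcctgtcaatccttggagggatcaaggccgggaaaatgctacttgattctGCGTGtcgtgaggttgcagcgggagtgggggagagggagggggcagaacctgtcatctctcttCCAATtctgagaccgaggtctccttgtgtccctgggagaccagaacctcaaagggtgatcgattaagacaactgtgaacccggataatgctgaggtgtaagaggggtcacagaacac
Cyb5r1 (chr1:134405531-134405780, plus strand): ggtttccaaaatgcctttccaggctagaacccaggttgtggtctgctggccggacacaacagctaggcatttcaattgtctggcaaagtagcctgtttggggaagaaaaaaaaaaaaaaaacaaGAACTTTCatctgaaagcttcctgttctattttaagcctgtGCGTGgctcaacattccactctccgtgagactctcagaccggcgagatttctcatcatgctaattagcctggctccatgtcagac
The window of Acsl4 was 70.8% G and C, that of Acsl5 52.8% and that of Cyb5r1 46.0%. All 3 held 1 match to GCGTG, at -94 to -90 in Acsl4, -180 to -176 in Acsl5 and -85 to -81 in Cyb5r1, counted back from the start, and 28.2% of the 32851 windows of this length in the table held it. Acsl4 had in addition 2 overlapping GC boxes (GGGCGG in 32.7% of windows), Acsl5 had 1 CCAAT (33.8%) and Cyb5r1 had 1 GAANNTTC (6.69%). None of the 3 windows matched ACGTG (16.6% of windows), TGCACNC (10.4%), TGCGCNC (12.5%), TGACNNNGC (10.2%), TGATGNAA (3.45%) or the sterol regulatory element (0.0731%). GCGTG was not particular to these genes. Windows of Acsl3, Acsl1, Elovl5 and Por, not printed here, also held it, and that of Lpcat3 did not. The Elovl5 window also held ACGTG and GAANNTTC. A match is a stretch of letters and not a bound site, and no match in this window says nothing of a factor.

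Among the acyl-CoA synthetases, Acsl4 (ENSMUSG00000031278, chromosome X, 141100989 to 141173531, minus strand, in the coordinates of the authors' file, which names no build) had 4.15, 5.92 and 3.52 FPKM in treated libraries 1, 2 and 3, against 2.52, 1.86 and 2.31 FPKM in control libraries 1, 2 and 3. Every treated library was above every control library, treated 2 stood highest and control 2 lowest. The group means were 4.53 ± 1.25 and 2.23 ± 0.338 FPKM (treated and control, SD, n = 3 each), a log2 fold change of 0.99 ± 0.18 (SE), or 1.98-fold (adjusted p = 0.00162). Without treated 2 it was 0.74, without control 2 it was 0.87, and without both it was 0.66 (adjusted p = 0.00466, 0.00838 and 0.00498). The longest Acsl4 transcript has a GC content of 39.0%, and 3.60% of tested rows with a value lay below it, where the median was 50.1%. At that GC content the trend fitted across all rows stood at 0.35, 0.72 and 0.14 (log2) in treated libraries 1, 2 and 3, against -0.19, -0.56 and -0.27 in control libraries 1, 2 and 3. These values put the 6 libraries in the same order as the FPKM of Acsl4 does.

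With the trend taken out, Acsl4 stood at 3.25, 3.60 and 3.18 GC-adjusted FPKM in treated libraries 1, 2 and 3, against 2.89, 2.75 and 2.78 in control libraries 1, 2 and 3. The groups still did not overlap, and the distance between them was smaller. The fold change in the GC-corrected fit was 0.22 ± 0.08 (log2, SE), or 1.17-fold (adjusted p = 0.0470). Its call was lost when the correction was joined with the replicate number as a block (0.22, adjusted p = 0.102). Over 18 alternatives the adjusted p ran from 1.5e-07 to 0.102.

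Acsl3 (ENSMUSG00000032883, chromosome 1, 78635542 to 78685460, plus strand) had 5.53, 6.64 and 4.47 FPKM in treated libraries 1, 2 and 3, against 4.25, 4.29 and 4.63 FPKM in control libraries 1, 2 and 3. The groups overlapped, since treated 3 lay below control 3, and treated 2 was again the highest. The log2 fold change was 0.30 ± 0.13 (adjusted p = 0.0945). It passed with upper quartile scaling (0.42, adjusted p = 0.0270) and without treated 3 (0.41, 0.0225), and it changed sign with the GC correction (-0.06, 0.638), over alternatives whose adjusted p ran from 0.0225 to 0.682. Its transcript has a GC content of 43.2%. The row of Utp14b shares 13475 bases with it on the same strand and had 169.5 estimated counts a library on average, compared with 1651 for Acsl3.

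Acsl5 (ENSMUSG00000024981, chromosome 19, 55240370 to 55284110, plus strand), a synthetase of mitochondria and the endoplasmic reticulum that is abundant in intestine, had 14.4, 15.1 and 13.0 FPKM in treated libraries 1, 2 and 3, against 31.0, 27.2 and 29.8 FPKM in control libraries 1, 2 and 3. The highest treated library stood far below the lowest control library. The means were 14.1 ± 1.04 and 29.3 ± 1.93 FPKM (treated and control, SD, n = 3 each), a log2 fold change of -1.09 ± 0.07, so that the treated level was 0.470 of the control level (adjusted p = 4.0e-06). After GC correction it was -1.09 ± 0.05, and the call held in all 18 alternatives, at -1.16 to -0.97. Zdhhc6, on the opposite strand, shares 24388 bases of the locus. Its own row fell by 0.68 ± 0.08 (log2), and whether the counting used the strand is not given in the sources used here.

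Acsl1 (ENSMUSG00000018796, chromosome 8, 46924074 to 46989088, plus strand), a synthetase with a broad range of long-chain substrates, was the least abundant, at 1.35, 1.19 and 1.05 FPKM in treated libraries 1, 2 and 3, against 1.22, 1.27 and 1.03 FPKM in control libraries 1, 2 and 3. The groups overlapped throughout. Its log2 fold change was -0.01 ± 0.14 (adjusted p = 0.968), or -0.22 ± 0.15 after GC correction (0.272). It was called in 0 of 18 alternatives, at -0.22 to 0.12.

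The make-up of the synthetase transcripts differed between the groups. The summed level of Acsl1, Acsl3, Acsl4 and Acsl5 was 25.4 ± 3.39 FPKM in treated and 37.1 ± 2.23 FPKM in control libraries (SD, n = 3 each). Acsl5 made up 55.9% ± 3.42 of that sum in treated cells and 79.0% ± 0.474 in control cells. Acsl4 made up 16.3%, 20.5% and 15.96% in treated libraries 1, 2 and 3, against 6.47%, 5.37% and 6.11% in control libraries 1, 2 and 3. Acsl3 made up 21.7% ± 1.39 in treated and 11.8% ± 0.826 in control cells, and Acsl1 made up 4.74% ± 0.592 in treated and 3.17% ± 0.483 in control cells. With GC-adjusted FPKM, an alternative chosen after seeing the data, Acsl4 made up 14.5% ± 0.740 in treated and 7.39% ± 0.143 in control cells, and Acsl5 60.1% ± 0.819 in treated and 76.5% ± 1.60 in control cells. On that scale Acsl3 made up 20.7% ± 0.676 in treated and 12.9% ± 1.37 in control cells. Acsl1 made up 4.76% ± 0.591 in treated and 3.29% ± 0.560 in control cells. For each of the 4 genes the shares of the groups did not overlap on either scale. Shares of 1 sum are tied to each other, so a lower Acsl5 raises the share of the others at an equal level. Acsl6, a further synthetase gene, was listed at 0 in all control libraries, reached at most 0.0104 FPKM in a treated one, and was not tested.

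**Figure D2:**
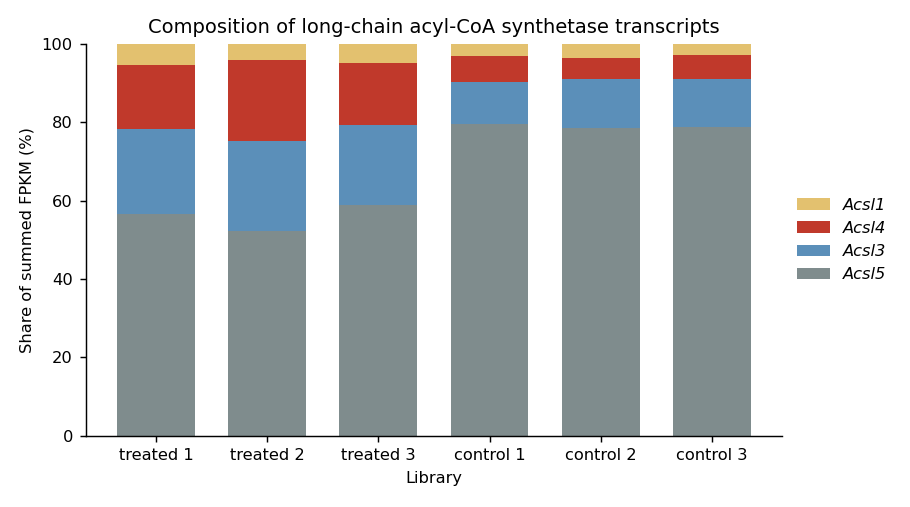
Share (%) of each of Acsl5, Acsl3, Acsl4 and Acsl1 in their summed FPKM, as stacked bars for the 3 treated and the 3 control libraries. Acsl5 takes 52.3% to 59.0% in treated libraries and 78.6% to 79.5% in control libraries.

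The ratio of Acsl4 to Acsl3 within a library does not depend on the scaling between libraries. Its log2 value was -0.41, -0.17 and -0.35 in treated libraries 1, 2 and 3, against -0.75, -1.20 and -1.01 in control libraries 1, 2 and 3. Every treated library was above every control library, and the means were -0.31 ± 0.13 and -0.99 ± 0.23 (treated and control, SD, n = 3 each). The difference of 0.68 gave p = 0.1 in a 2-sided exact permutation test, the smallest p that 3 against 3 libraries allow. This p was not adjusted over the 2 ratios tested. After GC correction the difference was 0.28 (exact p = 0.2), and the groups were no longer fully separated. The planned ratio of Lpcat3 to Mboat2 was not computed.

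Of the enzymes that make polyunsaturated chains, Elovl5 (ENSMUSG00000032349, chromosome 9, 77824646 to 77891801, plus strand), an elongase of polyunsaturated acids, had 8.73, 8.51 and 6.87 FPKM in treated libraries 1, 2 and 3, against 12.4, 9.80 and 10.5 FPKM in control libraries 1, 2 and 3. The groups did not overlap, with treated 1 closest to control 2. The log2 fold change was -0.48 ± 0.11 (adjusted p = 0.00528), and -0.67 ± 0.08 after GC correction (adjusted p = 9.6e-05), so here the correction moved the value away from 0. In limma on log2(FPKM + 1) over every row above 0 the call was lost (-0.40, adjusted p = 0.0568), the only loss among 18 alternatives.

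Fads1 (ENSMUSG00000010663, chromosome 19, 10160252 to 10174241, plus strand), the desaturase whose product is arachidonic acid, had 36.7, 35.1 and 33.3 FPKM in treated libraries 1, 2 and 3, against 36.3, 38.5 and 36.8 FPKM in control libraries 1, 2 and 3. The groups overlapped through treated 1. Its log2 fold change was -0.12 ± 0.07 (adjusted p = 0.196), or 0.01 after GC correction (0.844), and it was called in 0 of 18 alternatives. Its chromosome neighbours and relatives Fads2 and Fads3 fell by 0.38 and 0.77 (log2). After GC correction their log2 fold changes were -0.23 and -0.63.

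Lpcat3 (ENSMUSG00000004270, chromosome 6, 124639990 to 124681381, plus strand), the acyltransferase that places arachidonic and linoleic acid into lysophospholipids, had 21.5, 21.4 and 22.04 FPKM in treated libraries 1, 2 and 3, against 26.001, 24.97 and 23.7 FPKM in control libraries 1, 2 and 3. The groups did not overlap, but treated 3 and control 3 were close. The log2 fold change was -0.24 ± 0.07 (adjusted p = 0.0241). Of 18 alternatives 8 kept this call, and the adjusted p over all 18 spanned 0.0145 to 0.358. The call was lost without control 1, control 2 or treated 1 (adjusted p = 0.0506, 0.0561 and 0.0864), without both libraries numbered 2 (0.102), and after GC correction, which gave -0.09 ± 0.06 (0.226). Emg1, on the opposite strand, shares 334 bases with Lpcat3 and had 9934 estimated counts a library, against 5855 for Lpcat3. Its own row fell by 0.48 ± 0.08 (log2).

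Por (ENSMUSG00000005514, chromosome 5, 135698887 to 135764180, plus strand), the reductase that feeds electrons to microsomal cytochrome P450 enzymes, was by far the most abundant of the 9. It had 190.1, 163 and 192 FPKM in treated libraries 1, 2 and 3, against 229.5, 243 and 229 FPKM in control libraries 1, 2 and 3. All treated libraries were below all control libraries, and treated 2 was the lowest and control 2 the highest. The log2 fold change was -0.40 ± 0.09 (adjusted p = 0.00564), or -0.30 ± 0.05 after GC correction, and the call held in all 18 alternatives, with adjusted p from 0.000195 to 0.0272. Its transcript has a GC content of 58.3%, the highest of the 9.

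Cyb5r1 (ENSMUSG00000026456, chromosome 1, 134333297 to 134339474, plus strand), a cytochrome b5 reductase that uses NADH, had 15.4, 15.9 and 17.03 FPKM in treated libraries 1, 2 and 3, against 29.7, 29.97 and 29.0 FPKM in control libraries 1, 2 and 3. The control libraries lay within 1 FPKM of each other and far above the treated ones. The log2 fold change was -0.91 ± 0.08, a treated level of 0.532 of the control level (adjusted p = 1.6e-05), and -0.77 ± 0.06 after GC correction. The call held in all 18 alternatives. No other row of the table overlapped Cyb5r1, Acsl4 or Elovl5.

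The log2 ratio of Por to Cyb5r1 within a library was 3.63, 3.36 and 3.50 in treated libraries 1, 2 and 3, against 2.95, 3.02 and 2.98 in control libraries 1, 2 and 3. Por thus stood at 11.3 times the level of Cyb5r1 in treated cells and at 7.91 times in control cells, as geometric means of FPKM. The difference of 0.51 in the log2 ratio (0.47 after GC correction) gave p = 0.1 in the 2-sided exact permutation test, again the smallest p it can give. Every treated library had a higher ratio than every control library.

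**Figure D3:**
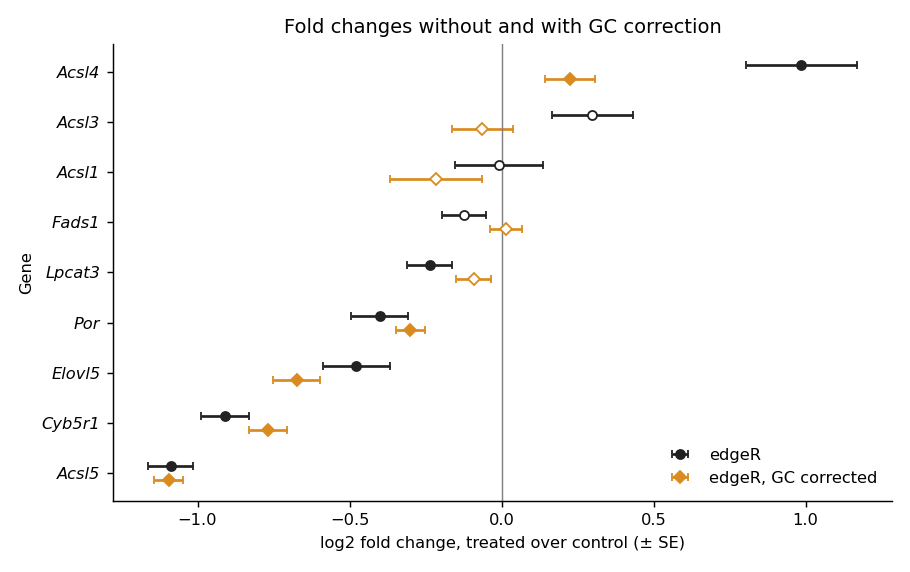
log2 fold change of treated over control (± SE) for each gene in edgeR's fit (circles) and in the fit with GC correction (diamonds), filled where the gene was called. Acsl4 moves from 0.99 to 0.22 and Acsl3 from 0.30 to -0.06, while Acsl5 stays at -1.09.

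**Figure D4:**
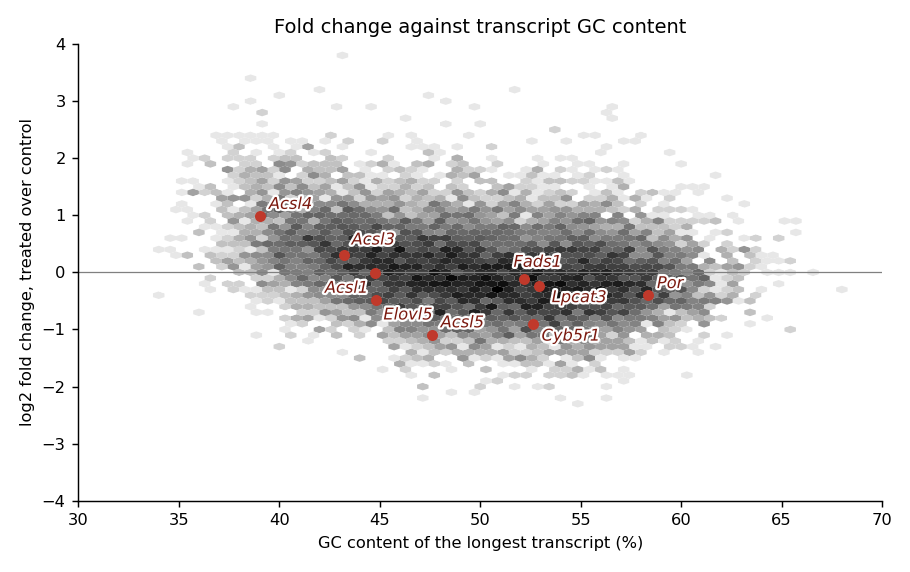
log2 fold change of treated over control against the GC content of the longest transcript (%), with all tested rows as grey hexagons (darker for more rows, on a log scale; 146 of 15760 rows lie outside the plotted range) and the 9 genes as red points. Low-GC rows lie higher (Spearman correlation -0.27), with Acsl4 at 39.0% and 0.99.

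By the root mean square difference of centred log2(FPKM + 1) over the 6 libraries, the 3 rows most like Acsl4 among 8984 were Krr1 (0.0278), Fam133b (0.0377) and Tfpi (0.0447). Their transcripts have GC contents of 42.4%, 40.6% and 39.7%, and their log2 fold changes were 1.23, 1.53 and 1.10, or 0.79, 0.93 and 0.39 after GC correction. Acsl5 was most like Msh6 (0.0175), with 10.03, 10.8 and 9.18 FPKM in treated libraries 1, 2 and 3, against 21.98, 19.4 and 20.7 FPKM in control libraries 1, 2 and 3. Cyb5r1 was most like Cenpv (0.0267), Por like B3gat3 (0.0141), Lpcat3 like Adi1 (0.0211), Elovl5 like Phka1 (0.0245), Fads1 like Sox13 (0.0145), Acsl3 like Sec63 (0.0377) and Acsl1 like Tgfbr3 (0.0211). This likeness over 6 libraries is a description and was not tested.

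The 9 genes were set beside 7 lists of related lipid genes. The shares of each list are to be read beside those over all tested rows, of which 23.0% rose and 23.5% fell, or 23.0% and 26.8% after GC correction. Counts in other settings are to be read beside the calls over all rows there. Lower calls over all rows numbered 3351 of 16212 with library totals and 3028 of 16212 with upper quartile scaling. In limma without a filter they numbered 3339 of 25407. They numbered 3668 of 16829 without control 1, 3526 of 16891 without control 2 and 3241 of 16713 without treated 1. Of the 35 list genes named by rule, 28 were called, a number that the rule itself fixes. Of these, 26 kept their call and direction after GC correction, the others being Abhd12 and Chpt1. They were picked for the smallest p in these same data, so this count says nothing of the lists as a whole. The share of all called rows that kept their call was not computed. In fatty acid uptake and activation, 5 of 11 tested genes rose (45.5%) and 4 fell (36.4%), with a median log2 fold change of 0.21 beside 0.06 over all tested rows. After GC correction 5 rose and 3 fell, with a median of 0.09 beside 0.0035 over all rows. The acyl-CoA thioesterase gene Acot13 averaged 41.5 ± 5.12 FPKM in treated and 20.3 ± 2.97 FPKM in control cells (SD, n = 3 each), a log2 fold change of 1.001 ± 0.13. The fatty acid transporter gene Slc27a1 rose by 0.41 ± 0.09, its relative Slc27a4 fell by 0.66 ± 0.09, and the thioesterase gene Acot7 fell by 0.45 ± 0.09. Slc27a3, the list's most abundant gene that was not called, averaged 0.607 ± 0.0769 FPKM in treated and 0.587 ± 0.119 FPKM in control cells. Higher calls numbered 3 without control 1, control 3, treated 1 or treated 2, and lower calls numbered 2 without treated 1 and with upper quartile scaling. Over all rows, higher calls numbered 3572 of 16829 without control 1, 3334 of 16891 without control 2 and 3138 of 16873 without control 3. They numbered 2832 of 16713 without treated 1 and 2970 of 16690 without treated 2.

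In elongation and desaturation, 3 of 14 tested genes rose and 3 fell (21.4% each, near the shares of all rows), with a median of -0.17. After GC correction 3 rose and 6 fell (42.9%, where 26.8% of all rows fell), with a median of -0.17. The stearoyl-CoA desaturase gene Scd1, whose product is monounsaturated, averaged 76.7 ± 8.196 FPKM in treated and 57.1 ± 1.20 FPKM in control cells (SD, n = 3 each), a log2 fold change of 0.39 ± 0.08, and its relative Scd2 rose by 0.24. Hacd2, a dehydratase of the elongation cycle, rose by 0.38 ± 0.09, or by 0.22 after GC correction (adjusted p = 0.0445), a call lost when the GC correction was joined with the replicate block (0.22, adjusted p = 0.110). Fads3 fell by 0.77 ± 0.07 and the elongase gene Elovl1, which acts on saturated and monounsaturated chains, by 0.63 ± 0.09. Tecr, the last enzyme of the elongation cycle, stood at 75.8 ± 6.27 FPKM in treated and 83.4 ± 1.99 FPKM in control cells (adjusted p = 0.141), and passed without treated 3 (-0.25, 0.0322).

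Of 16 tested lysophospholipid and glycerol phosphate acyltransferases, 3 rose (18.8%) and 8 fell (50.0%), with a median of -0.27. After GC correction the counts were again 3 and 8, with a median of -0.33. Gpat4, which starts glycerolipid synthesis, averaged 13.6 ± 0.439 FPKM in treated and 25.8 ± 0.764 FPKM in control cells (SD, n = 3 each), a log2 fold change of -0.96 ± 0.08. Lpcat4 fell by 0.57 ± 0.08, the cardiolipin remodelling gene Tafazzin rose by 0.48 ± 0.10, and Agpat4 rose by 0.41 ± 0.09. Agpat3 stood at 16.1 ± 0.990 FPKM in treated and 17.5 ± 0.549 FPKM in control cells (adjusted p = 0.125). The lower calls numbered 4 without control 1 or treated 1 and with library totals or upper quartile scaling, and 5 in limma without a filter.

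Among phospholipases and enzymes of acyl release, 4 of 17 rose (23.5%, near the share of all rows) and 6 fell (35.3%), with a median of -0.14. After GC correction 3 rose and 6 fell, with a median of -0.18. Pla2g4a, the cytosolic phospholipase that frees arachidonic acid, had 4.41, 6.43 and 3.70 FPKM in treated libraries 1, 2 and 3, against 2.32, 1.69 and 2.36 FPKM in control libraries 1, 2 and 3. As for Acsl4, treated 2 was highest and control 2 lowest, and the log2 fold change of 1.15 ± 0.19 was 0.87 after GC correction. Pnpla8, a calcium-independent phospholipase, rose by 1.64 ± 0.23 (0.91 after GC correction, with a transcript GC content of 39.1%). Pnpla7 fell by 0.62 ± 0.12 and the lysophospholipase gene Abhd12 by 0.29 ± 0.08. The call of Abhd12 was lost after GC correction (-0.14, adjusted p = 0.0507), also when joined with the replicate block (0.130). It was lost too with the replicate block alone (0.0521), with upper quartile scaling (0.0930) and without both libraries numbered 2 (0.0641). Lypla2 stood at 36.7 ± 3.43 FPKM in treated and 39.6 ± 2.52 FPKM in control cells (adjusted p = 0.233). Lower calls in this list numbered 3 without control 2 or treated 1, with library totals and in limma without a filter, and 1 with upper quartile scaling.

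Of 15 tested electron donors and lipid oxidising enzymes, 4 rose and 4 fell (26.7% each, near the shares of all rows), with a median of -0.07. After GC correction 5 rose and 4 fell, with a median of 0.0013. The cytochrome b5 gene Cyb5a averaged 12.6 ± 0.861 FPKM in treated and 8.76 ± 1.004 FPKM in control cells (SD, n = 3 each), a log2 fold change of 0.49 ± 0.10, and its mitochondrial relative Cyb5b fell by 0.56 ± 0.08. Cyb5rl fell to 0.347 ± 0.107 FPKM in treated cells, against 1.51 ± 0.0338 FPKM in control cells (-2.13 ± 0.23, adjusted p = 6.2e-05). Cyb5r3, chosen after its value was seen, fell by 0.39, with a log2 fold change of -0.25 after GC correction. The lipoxygenase genes Alox5, Alox8, Alox12, Alox12b and Alox15, whose enzymes oxidise polyunsaturated acids, reached at most 0.0562 FPKM in any library and were not tested. Aloxe3 was called higher at 0.570 ± 0.105 FPKM in treated and 0.183 ± 0.104 FPKM in control cells (1.61 ± 0.40). Pebp1, a protein that binds lipoxygenases, stood at 384 ± 21.8 FPKM in treated and 328 ± 6.84 FPKM in control cells without passing (0.19, adjusted p = 0.0833), and passed in 7 alternatives, among them the GC correction (0.32, 0.000621). Higher calls numbered 2 without control 2, control 3, treated 1 or treated 2.

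In ether lipid synthesis, whose products can carry polyunsaturated chains, 5 of 14 genes rose (35.7%) and 3 fell (21.4%), with a median of 0.24. After GC correction 4 rose and 3 fell, with a median of 0.02. Cept1, which forms phosphatidylcholine and phosphatidylethanolamine, averaged 9.0002 ± 1.98 FPKM in treated and 3.60 ± 0.397 FPKM in control cells (SD, n = 3 each), a log2 fold change of 1.28 ± 0.15, or 0.57 after GC correction. Chpt1 rose by 1.03 ± 0.15, a call lost after GC correction (0.17, adjusted p = 0.514). Gnpat, which starts ether lipid synthesis in peroxisomes, fell by 0.49 ± 0.07 and Pcyt2 by 0.36 ± 0.10. Pcyt2 was not called without treated 1 (adjusted p = 0.0583), without both libraries numbered 2 (0.111) or with upper quartile scaling (0.0738). Pex19 stood at 20.7 ± 0.715 FPKM in treated and 18.8 ± 1.52 FPKM in control cells (adjusted p = 0.382). Lower calls numbered 1 without treated 1, and with upper quartile scaling 8 genes of the list rose and 1 fell, where 28.9% of all rows rose and 18.7% fell.

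Of 15 lipid regulators of transcription, 5 rose (33.3%) and 3 fell (a share below the 23.5% of all rows), with a median of 0.17. After GC correction the counts were again 5 and 3, with a median of 0.15. Insig2 and Insig1, which hold the sterol-sensing SCAP protein in the endoplasmic reticulum, rose by 1.59 ± 0.14 and 1.05 ± 0.08, and Insig2 averaged 14.3 ± 2.29 FPKM in treated and 4.65 ± 0.807 FPKM in control cells (SD, n = 3 each). Scap itself fell to 10.1 ± 0.794 FPKM in treated cells, against 21.1 ± 1.60 FPKM in control cells (-1.10 ± 0.10). Rxra, the partner of several lipid-sensing nuclear receptors, fell by 0.54 ± 0.09. Nr1h2, a liver X receptor and as such a known regulator of Lpcat3, stood at 75.2 ± 6.60 FPKM in treated and 69.2 ± 1.81 FPKM in control cells (adjusted p = 0.492), and passed after GC correction (0.15, 0.0368).

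**Figure D5:**
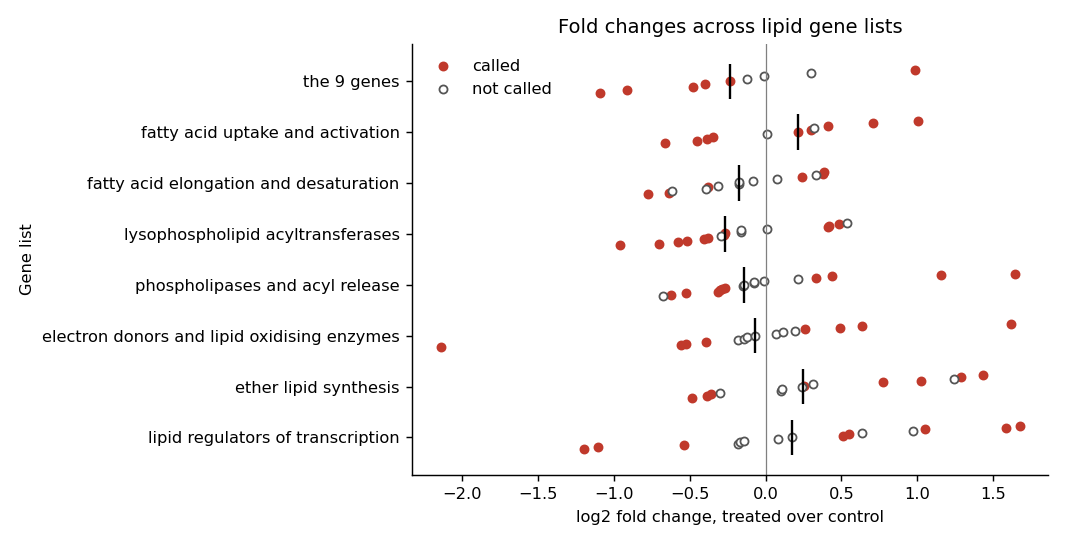
log2 fold change of treated over control for every tested gene of the 9 and of the 7 lists, filled where called and open where not, with a line at the list's median; height within a row has no meaning. The medians run from -0.27 for lysophospholipid acyltransferases to 0.24 for ether lipid synthesis, and genes lie on both sides of 0 in every list.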

How the data were processed

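Per the labels' protocols, mRNA was selected with oligo-dT beads from total RNA of each library, a dUTP label let the second cDNA strand be digested, and read pairs were sequenced on an Illumina instrument. The authors deposited FPKM values and counts per gene and library in 1 table, per the file headers. The deposited counts were treated as estimated counts, since the value 4 was found 4054 times and its neighbouring values 2539.5 times on average, so multiples of 4 were in excess. HISAT2 2.2.1, cutadapt 1.9, edgeR, StringTie 2.1.6 and DESeq2 are named, with no role, in the submitters' processing notes. The sources used here do not give the build, the annotation or the strand setting of the counting.

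Counts, already whole numbers, were tested with edgeR 4.0.16 in R 4.3.3 (quasi-likelihood test, default filter on low counts, TMM, 2-sided), with Benjamini-Hochberg adjustment over 16212 rows. The SE is the absolute log2 fold change over the square root of F. Group values are mean FPKM ± SD. GC content came from the longest GENCODE M21 transcript of each gene, matched by identifier for 97.2% of tested rows, and the correction was a loess fit per library (span 0.4) used as an offset. GC-adjusted FPKM is FPKM divided by that trend. Alternatives were DESeq2 1.42.0, limma 3.58.1 on log2(FPKM + 1) or log2(FPKM + 0.1), other scalings and filters, counts divided by 4, a replicate block and left-out libraries. The edgeR and GC steps were tested on simulated data with known changes. The simulated GC trend was the same in every treated library, and the changes were placed without regard to GC content. That simulation thus cannot show how the correction acts on unlike trends within a group, or on a response that follows GC content. Single ratios used exact permutation tests.

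Genes, lists and tests were chosen with earlier results of these data known. Named are all 9 genes, and from each list the 2 higher and 2 lower calls with the smallest p and the most abundant gene not called. Named beside them, after their values were seen, are Acsl6, Fads2, Scd2, Cyb5r3, the lipoxygenase genes and rows overlapping the 9. For likeness, rows with a mean of at least 1 FPKM and no predicted or clone name were compared. Of the columns holding values per sample, 0 were left unused. The summed level of the leukocyte marker list is not reported here.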

Additional observations from a re-analysis of the deposited data

How the results depend on the processing

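Over 18 alternative settings the number of rows called ran from 6073 to 7861. The rows tested ran from 10347 to 25407, so these counts stand for unlike shares. In limma on log2(FPKM + 1) with a filter, 6414 of 10347 rows were called, 3427 of them lower. In edgeR without a filter on low counts, 6867 of 25407 rows were called, 3398 of them lower. Of the 9 genes, 4 or 5 were called lower. The number called higher was 1 as reported, 2 with upper quartile scaling, 0 with the GC correction joined to a replicate block, and 1 to 2 with each library left out in turn (2 without treated 3). Acsl1, Acsl3 and Fads1 changed sign, none of them called in the fit as reported. The log2 fold change of Acsl1 was 0.072 with library totals only, 0.12 with upper quartile scaling, 0.0099 without a filter on low counts, 0.0057 with counts divided by 4, 0.016 in limma with a pseudocount of 1 (with or without a filter) and 0.027 with one of 0.1, 0.089 without both libraries numbered 2, and -0.12 to 0.063 with 1 library left out. That of Acsl3, 0.30 as reported, was -0.063 with the GC correction and -0.058 with the correction and the block. That of Fads1 was 0.0011 with upper quartile scaling and 0.015 with the GC correction, alone or with the block. With 1 library left out, Nr1h2 ran from -0.0062 to 0.14 and Slc27a3 from -0.18 to 0.089. The cause of these changes was not tested. Both within-library ratios kept their direction in each of the 9 alternatives tried for them, at 0.57 to 0.80 (Acsl4 to Acsl3) and 0.44 to 0.58 (Por to Cyb5r1) with 1 library left out. With the GC correction they were 0.28 (Acsl4 to Acsl3) and 0.47 (Por to Cyb5r1). The planned ratio of Lpcat3 to Mboat2 was not run.

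The replicate numbers are shared labels, and nothing says whether libraries of the same number belong together. Deviations of same-numbered treated and control libraries correlated at 0.047, -0.415 and 0.136 across rows, and those of unlike-numbered ones at -0.421 to 0.432. These values cannot tell whether same-numbered libraries were paired, since the libraries also differ in their GC trend. With the replicate block 6275 rows were called, among them Acsl4 and 4 of the 5 genes called lower, Lpcat3 being lost (adjusted p = 0.0996). In the lists the block left 3 higher and 2 lower calls in uptake and activation (2 lower also with the GC correction), 4 lower calls among acyltransferases and 2 among phospholipases. Over all rows the block gave 3070 higher and 3205 lower calls of 16212, and 3748 lower calls of 15760 with the GC correction. Each group has 3 libraries, which limits the precision of the smaller differences. Acsl4 rests on 1426 to 2439 estimated counts in treated and 868 to 1093 in control libraries.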
